A study of Mus musculus with 8 samples.

Results

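The cells described here were 2279 melanoma cells of 8 large B16F10 tumours, out of 22783 melanoma cells kept and 41925 barcodes deposited. Their name, late mitotic and early G1 melanoma cells, rests on transcripts alone, and no early G1 set was defined for comparison. They were chosen by a score on 10 genes, pooled over the 8 tumours. The score was the mean ln(1 + count per 10000) of Cenpa, Cdc20, Ccnb2, Cdkn3 and Knstrn, the added genes, minus that of Top2a, Cenpf, Prc1, Cenpe and Nusap1, the subtracted genes. The highest 10% were taken as members. Since the score was read from the same cells, every difference between members and other cells in expression is given as a description, with no test.

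B16F10 is a mouse melanoma line. The tumours were grown in C57BL/6 hosts, were taken at about 300 mm3, and each gave 1 droplet library in which a unique molecular identifier (UMI) stands for 1 captured transcript. All hosts carried a tamoxifen-inducible Cre driven from the Rosa26 locus and received tamoxifen, so that host Atf4 was left intact in 4 Atf4WT/WT mice and excised in 4 Atf4Δ/Δ mice, aged 12 weeks by their labels. The injected melanoma cells carried intact Atf4 in both hosts, and the comparison therefore asks what a host without ATF4, the transcription factor of the integrated stress response, does to tumour cells that still have it. Tumours 1 and 3 of the Atf4WT/WT group and tumours 2, 3 and 4 of the Atf4Δ/Δ group came from male hosts, the other 3 from female hosts.

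Cell division is ordered by the rise and removal of a small set of proteins. Cyclin B and CDK1 drive entry into mitosis, the ubiquitin ligase APC/C with its coactivator CDC20 removes cyclin B and securin at anaphase, and APC/C with CDH1 then holds the new G1 cells until origins are licensed for the next S phase. Transcripts of many mitotic genes outlast the proteins, so a cell that has just divided can still hold them. Expression of this kind orders cells by their transcripts only, and no DNA content or image of these cells was analysed here.

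Libraries of the Atf4WT/WT group held 37283598 to 74942137 UMIs and those of the Atf4Δ/Δ group 40492910 to 55655925. Barcodes with 200 to 5000 genes and at most 7.5% mitochondrial UMIs numbered 28411, of which 23550 had at least 4000 UMIs and 22783 of these took at least 0.3% of their UMIs from Mlana, Pmel, Dct, Tyr and Tyrp1. The upper limit on genes removed 622 barcodes. Between 2 and 14 barcode sequences were shared by any pair of libraries. Members came to 480, 222, 145 and 234 in Atf4WT/WT tumours 1 to 4 and to 238, 249, 435 and 276 in Atf4Δ/Δ tumours 1 to 4. Summed over the members of a tumour, 1584017 to 4923784 UMIs stood behind each value.

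The score at the limit was 0.413. Around it the cells formed a continuum rather than a gap: the 100 lowest members had a median of 0.422 and the 100 highest other cells one of 0.407, and 312 members and 393 other cells lay within 0.05 of the limit. A median member had a score of 0.615, against 0 in the other melanoma cells, and held 9 UMIs of the added and 1 of the subtracted genes. All 5 added genes were seen in 651 members, and 1538 members (67.5%) held at least 4 of them. Of the subtracted genes, 637 members (28.0%) held no UMI, a state that depth alone can give and that 35.0% of the other cells shared.

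To place the members in the cycle, 2 sets of their neighbours were taken from the other melanoma cells. The G2/M cells were the 2051 with the most of the 5 subtracted genes, and the G1/S cells the 1846 of the rest with the most of Mcm3, Mcm5, Mcm6, Cdc6 and Ccne2. Summed over the 5 added genes, members held 918 ± 15.7 CPM (UMIs of a gene per 1000000 UMIs of the summed cells; mean ± SD over 8 tumours), G2/M cells 906 ± 47.8, G1/S cells 160 ± 17.2 and all other melanoma cells 287 ± 30.3. For the 5 subtracted genes the levels were 194 ± 21.9, 2659 ± 97.8, 656 ± 62.6 and 699 ± 76.2 CPM. Members thus held as much of the added genes as G2/M cells and less of the subtracted genes than any of the 3 sets, which is what the score asked for.

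**Figure D1:**
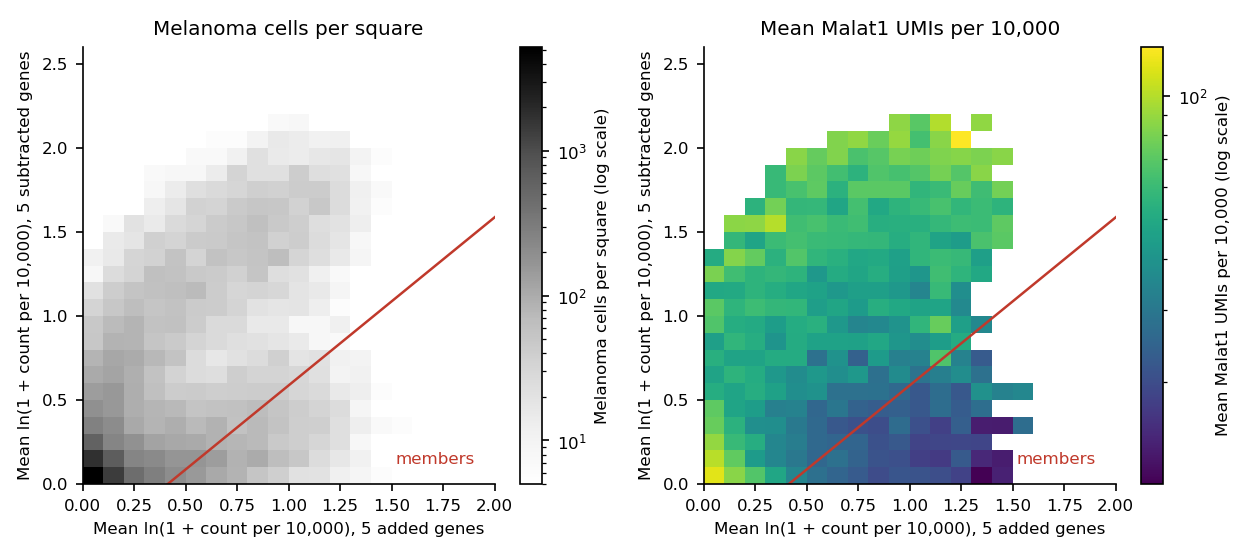
Each square holds at least 5 melanoma cells of the 8 tumours, placed by the mean ln(1 + count per 10,000) of the 5 added genes (horizontal) and of the 5 subtracted genes (vertical). Shading gives the number of cells (left) and their mean Malat1 UMIs per 10,000 (right), both on a log scale, and cells to the right of the red line, at a score of 0.413, were members. The darkest squares, those with the least Malat1, lie beyond the line, near the horizontal axis.

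The added genes encode proteins of the kinetochore, the spindle and mitotic exit. Cenpa, the histone H3 variant of centromeres, was at 280 ± 16.2 CPM in members and 90.5 ± 11.3 in other melanoma cells, and Ccnb2, a B-type cyclin, at 246 ± 12.1 and 70.2 ± 8.54. Cdc20, the mitotic coactivator of APC/C, was at 134 ± 10.4 against 47.4 ± 5.46 CPM. Cdkn3, a phosphatase that acts on cyclin-dependent kinases, had the largest median difference of the 5, 1.90 on the log2(CPM + 1) scale (1.62 to 2.50 over tumours), and Knstrn, a kinetochore and spindle protein, was at 157 ± 15.2 against 53.3 ± 4.25 CPM. Against the G2/M cells these genes split. Cdkn3 (76.2 ± 8.36 CPM there) and Ccnb2 (192 ± 17.1) were higher in members in 8 of 8 tumours, Cdc20 (177 ± 15.9) was lower in 8 of 8, and Cenpa (310 ± 14.8) lower in 7.

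The subtracted genes act on chromosomes, kinetochores and the spindle. Top2a, the topoisomerase that untangles chromosomes, was at 32.1 ± 3.77 CPM in members and 303 ± 37.6 in other cells, and Prc1, which bundles the central spindle, at 13.0 ± 3.28 and 115 ± 10.3. Nusap1, a spindle protein, was at 11.7 ± 2.67 against 48.5 ± 6.66. The kinetochore genes Cenpf and Cenpe were reduced least, by medians of -0.97 and -0.61 on the log2 scale. In G2/M cells Cenpf stood at 666 CPM and Cenpe at 319 and in members at 82.6 ± 13.3 and 54.7 ± 8.22 CPM, a contrast that the choice of both sets on these genes fixed.

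Mitotic genes are commonly driven through the cell cycle genes homology region (CHR), read by the DREAM and MuvB complexes, and through CCAAT boxes, read by NF-Y. Added and subtracted genes were both searched for these letters, because genes of one program were here divided between members and their neighbours. RefSeq promoters of GRCm38.p6 from 250 bases before to 50 bases after the start were used, and all 10 genes had at least 1 (Prc1 had 2). A CHR was written as TTTGAA or TTCGAA on either strand and a CCAAT box as CCAAT on either strand, and in the promoters of these 10 genes no match of one overlapped a match of the other. A CHR was present in 4 of 5 promoters of added genes and 4 of 6 of subtracted genes, against 19.2% of all 32851 promoters, and CCAAT in 4 of 5 and 5 of 6, against 37.4%. Both words were thus found among added and subtracted genes. For the 7 genes with a CHR, the match nearest the start is given in capitals (TTCAAA being TTTGAA on the other strand) with 12 bases on each side, on the strand of the gene.
Cenpa: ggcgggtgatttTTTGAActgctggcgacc
Cdc20: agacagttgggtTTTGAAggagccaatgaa
Ccnb2: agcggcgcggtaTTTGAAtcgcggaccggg
Cdkn3: ttccgcgcgtctTTCAAAgacttcctctga
Top2a: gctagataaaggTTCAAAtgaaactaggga
Cenpf: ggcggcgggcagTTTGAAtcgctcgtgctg
Prc1: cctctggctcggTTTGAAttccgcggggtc
The first 4 are from added genes and the last 3 from subtracted genes. They lie at chr5:30666890-30666919 (plus strand), chr4:118437344-118437373 (minus), chr9:70421533-70421562 (minus), chr14:46760418-46760447 (plus), chr11:99024195-99024224 (minus), chr1:189688067-189688096 (minus) and chr7:80294434-80294463 (plus). The match began 18 bases before the start in Cdc20, 111 before it in Cdkn3, 23 in Top2a and 5 in Prc1, and at base 17, 5 and 3 of the transcript in Cenpa, Ccnb2 and Cenpf. In Knstrn and Nusap1 neither word was in the window, and in Cenpe only CCAAT was.

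Beyond the 10 genes of the score, members differed from the other melanoma cells most in further genes of mitosis, in histone genes and in Malat1. Of 9260 genes with a mean of at least 5 CPM, 14.6% were higher in members in all 8 tumours and 14.4% were lower in all 8, and the median difference over all of them was -0.003 on the log2(CPM + 1) scale. Among the 5802 genes of at least 20 CPM, 1207 were higher and 920 lower. The shares are the background for the counts that follow. The rule used these cells, so the counts describe what was selected along with the 10 genes.

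Late mitotic genes outside the score were higher in members for 10 of 15 measured and lower for 2 in all 8 tumours, with a median of 0.33. They were well under the level of G2/M cells, with a summed 2161 ± 73.8 CPM in members and 4484 ± 139 in G2/M cells. Birc5, which encodes survivin of the chromosomal passenger complex, was at 345, 364, 373 and 360 CPM in members of Atf4WT/WT tumours 1 to 4 and at 390, 311, 366 and 354 CPM in those of Atf4Δ/Δ tumours 1 to 4. In the other melanoma cells it was between 173 and 230 CPM, below every member value. Cdca3, which triggers degradation of the mitotic inhibitor kinase WEE1, was at 214 ± 24.7 against 107 ± 13.4 CPM, a median fold of 2.03. Tacc3, a spindle microtubule protein, was higher by 0.93 on the log2 scale, Hmmr by 0.71 and Cdca8 by 0.33. In G2/M cells Birc5 (541 CPM), Cdca3 (280), Tacc3 (107), Hmmr (206) and Cdca8 (230) were higher than in members in 8 of 8 tumours. Pttg1, which encodes securin, was the reverse, at 57.9 ± 4.47 CPM in members, 44.4 ± 1.53 in other cells and 44.7 ± 2.53 in G2/M cells, and members were above both in 8 of 8 tumours. The 2 lower genes were Ccnf (2.53 ± 0.683 against 11.5 ± 1.87 CPM) and Arl6ip1 (253 ± 19.5 against 312 ± 8.46 CPM). Ube2c, the ubiquitin-conjugating enzyme of APC/C, was at 174 ± 11.4 CPM in members and 189 ± 20.5 in other cells, and was lower in 7 of 8 tumours.

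Kinases that drive mitosis did not share this direction. Of 13 genes of mitotic kinases and the spindle checkpoint, 2 were higher (Bub1 and Mad2l1) and 3 lower (Aurkb, Cdk1 and Bub3) in all 8 tumours. Cdk1 was at 57.3 to 85.3 CPM over the members of the 8 tumours and at 153 to 206 in their other melanoma cells, so the sets did not overlap. Aurkb, the kinase of the chromosomal passenger complex, was at 9.82 ± 2.84 CPM in members, 51.7 ± 6.41 in other cells and 148 ± 11.8 in G2/M cells. Its partner Incenp was lower by 1.23 on the log2 scale. Birc5, Cdca8, Aurkb and Incenp encode one complex, and in members the first pair was above and the second pair below the level of other cells.

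In the ubiquitin machinery of mitotic exit, Fbxo5, which encodes the APC/C inhibitor EMI1, was at 1.97 to 6.19 CPM in members. In other cells of the same tumours it was at 28.4 to 36.1 CPM. The median difference was -2.97 on the log2 scale, -1.61 on log2(CPM + 10) and -1.86 with members chosen after thinning. G2/M cells held 58.2 ± 5.10 CPM of Fbxo5 and G1/S cells 84.1 ± 8.06, and members were below both in 8 of 8 tumours. Ube2s, which extends ubiquitin chains for APC/C, was at 1070 ± 62.7 against 666 ± 59.6 CPM in other cells. It was at 1232 CPM in G2/M cells, above members, and at 632 in G1/S cells. Summed over the APC/C list, members held 1930 ± 77.7 CPM and G2/M cells 2251 ± 91.9. Of 13 genes of APC/C and its regulators, 5 were higher in all 8 tumours (Ube2s, Anapc5, Anapc11, Anapc15 and Cdc26) and 2 were lower (Fbxo5 and Fzr1). Differences of the 4 higher subunits were small, from 0.08 for Anapc11 and Anapc5 to 0.25 for Cdc26 and 0.37 for Anapc15.

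Kinetochore, spindle and cytokinesis genes were divided. Cenpw (0.62), Spc24 (0.40), Cenpm and Cenpn were higher in all 8 tumours, and the kinetochore gene Spc25 (-0.92) and the cohesin protector Sgo1 (-1.02) lower, among 15 kinetochore genes. For 14 spindle genes the counts were 4 higher and 5 lower. Tpx2, which activates Aurora A on the spindle, was at 121 ± 7.57 against 86.2 ± 8.37 CPM, and Kif11, the motor that separates the spindle poles, at 17.9 ± 3.15 against 40.7 ± 5.58. Kpna2, an importin, was lower by 1.58. Of 10 cytokinesis genes 2 were higher, Kif20a (0.84) and Racgap1 (0.64), and 2 lower, Incenp and Cit. Kif20a and Racgap1 act at the central spindle at the close of mitosis. Summed over each list, members were well under G2/M cells. The kinetochore genes were at 584 ± 23.1 CPM in members and 1158 ± 59.4 in G2/M cells. The spindle genes were at 741 ± 37.1 and 1845 ± 74.9, and the cytokinesis genes at 357 ± 15.5 and 999 ± 26.6. Of 14 genes of condensin and the nuclear envelope 2 were higher and 4 lower, and of 10 tubulin genes 3 were higher and 3 lower. Among genes outside these lists, Cep89 (44.0 against 19.9 CPM), C330027C09Rik (65.4 against 34.1) and Mdfi (50.7 against 29.6) were higher in members than in other cells. Cdca2 (6.08 against 21.9) and Rad51ap1 (10.7 against 37.6) were lower. In G2/M cells Cep89 was at 42.1 CPM, close to members, C330027C09Rik at 86.0, above them, and Mdfi at 30.6, below them. Cdca2 was at 69.2 and Rad51ap1 at 52.0 CPM there.

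Genes that prepare and carry out DNA replication were low in members. Of 20 genes of origin licensing and the G1/S switch, 18 were lower and 0 higher in all 8 tumours, with a median of -0.64. Mcm6 was at 34.8 ± 5.81 CPM in members, 55.2 ± 7.79 in other melanoma cells and 181 ± 11.8 in G1/S cells. E2f1 was at 14.0 ± 3.19 against 28.1 ± 4.59 CPM, Ccne1 at 16.3 ± 2.58 against 32.1 ± 2.96 and Cdc45 at 8.82 ± 2.18 against 21.7 ± 2.37. The 2 exceptions were Mcm5 and Cdt1, which were lower in 7 of 8 tumours. Of 16 genes of DNA synthesis 12 were lower and 0 higher, Clspn by 1.23 and Atad2 by 0.96, while Rrm1 and Tyms differed in either direction. Ccnd1, a G1 cyclin, was at 112 ± 17.7 CPM, above G2/M cells (84.5 ± 12.0) in 7 of 8 tumours and below G1/S cells (151 to 196 CPM) in 8 of 8. Cdkn1a, which encodes p21, was at 90.8 ± 16.2 CPM against 162 ± 19.8 in other cells. Of 10 genes of CDK inhibitors and p53 targets 1 was higher and 3 lower in all 8 tumours, and of 10 cyclin genes outside the score 2 were higher and 5 lower.

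**Figure D2:**
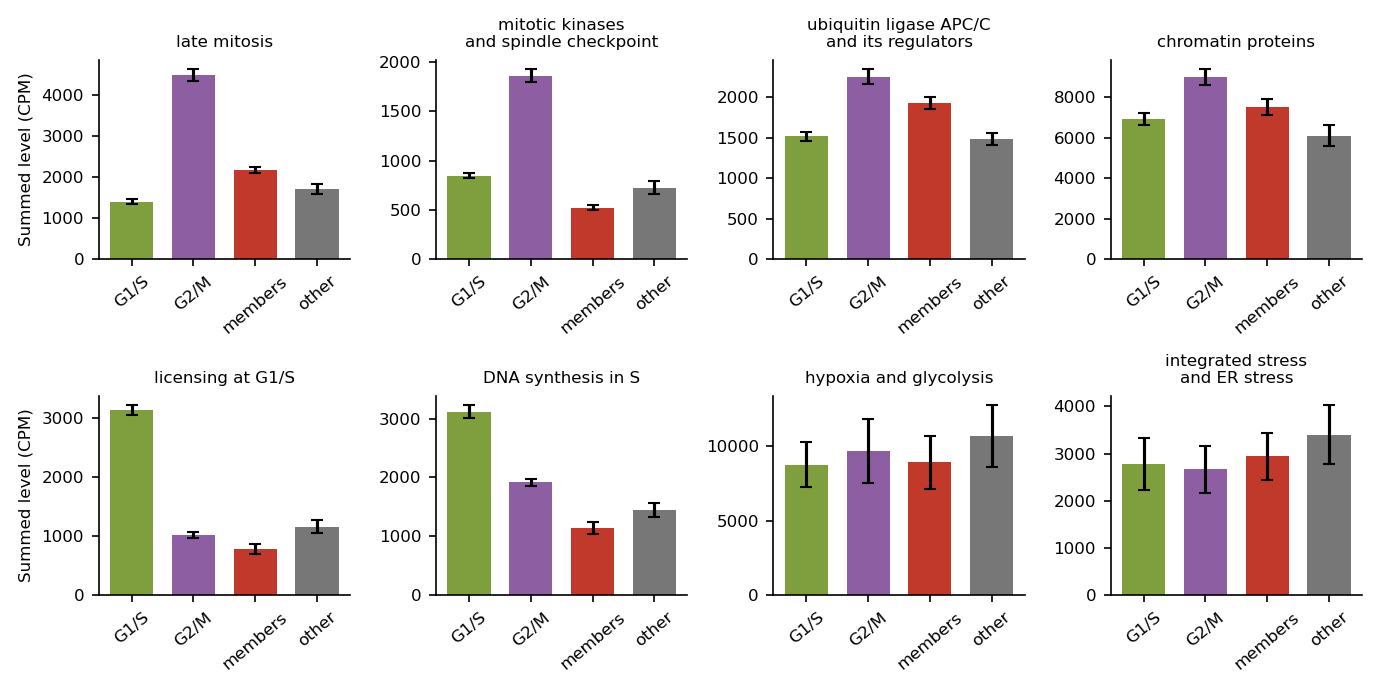
Summed level in CPM of 8 gene lists in G1/S cells, G2/M cells, members and all other melanoma cells. Bars are means over 8 tumours with SD, from 0. Members held 2161 CPM of the late mitotic genes and 523 of the mitotic kinases, and their 782 CPM of licensing genes was the lowest of the 4 sets.

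Of 11 replication-dependent histone genes measured, a list added after seeing the data, 1 was higher (Hist1h2bc) and 7 were lower in all 8 tumours. Hist1h2bc was at 120, 128, 85.9 and 73.9 CPM in members of Atf4WT/WT tumours 1 to 4 and at 118, 81.7, 95.9 and 104 in those of Atf4Δ/Δ tumours 1 to 4. In other melanoma cells it was at 53.9 ± 9.75 CPM and in G2/M cells at 28.1 ± 9.15, and members were above both in every tumour. Linker histone Hist1h1e went the other way, with 17.2 ± 8.66 CPM in members, 71.5 ± 23.1 in other cells and 147 ± 49.9 in G1/S cells. Hist1h2ae (8.82 ± 2.41 against 36.2 ± 7.65 CPM) and Hist1h4d (7.56 ± 4.03 against 24.1 ± 13.1) were low as well. Libraries primed on poly(A) catch replication-dependent histone transcripts poorly, as most have no poly(A) tail, and near-identical copies in the histone clusters make single genes uncertain. Among chromatin proteins that are not tied to S phase, 6 of 9 were higher and 0 lower than in other cells in all 8 tumours. Summed, these genes were at 7516 ± 397 CPM in members, 8990 ± 398 in G2/M cells and 6937 ± 308 in G1/S cells. H2afz, a replacement H2A, was at 2666 ± 155 against 1781 ± 180 CPM, and Hmgb3 was higher by 0.74, Hmgn2 by 0.54 and Hmgb1 by 0.52.

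Malat1, a nuclear long noncoding RNA, was low in members. It was at 2513, 2435, 2852 and 2248 CPM in Atf4WT/WT tumours 1 to 4 and at 2203, 2324, 2148 and 2436 CPM in Atf4Δ/Δ tumours 1 to 4. In other melanoma cells of the same tumours it was between 6342 and 8881 CPM, so the sets did not overlap and the median fold of other cells over members was 2.94. G2/M cells (6276 ± 455 CPM) and G1/S cells (4496 ± 556 CPM) also stood above members in 8 of 8 tumours. By cell, the median was 18.5 Malat1 UMIs per 10000 in members (10th to 90th percentile 7.84 to 47.5) and 55.6 in other cells (17.7 to 159), so the ranges overlapped. Neat1, another nuclear noncoding RNA, was at 330 ± 35.0 CPM in members and 362 ± 49.2 in other cells, lower in 7 of 8 tumours. The share of mitochondrial UMIs was slightly higher in members, at a median of 5.66% ± 0.367 against 5.41% ± 0.431 in other cells. Median UMIs per cell were lower in members, at 0.917 times those of other cells. Their part in the Malat1 difference was not tested.

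Along the whole score, Malat1 did not simply fall. It was at 5648 ± 574 CPM in cells with scores below -0.4, at 9447 ± 1131 around 0, where most cells hold neither set of genes, at 5372 ± 713 from 0.1 up to the limit, and at 2636 ± 330 and 2142 ± 160 in the lower-scoring 1139 and the higher-scoring 1140 members. Ero1l, an oxidase of the endoplasmic reticulum induced in hypoxia, followed the same course, from 669 ± 155 CPM around a score of 0 to 174 ± 33.1 in the higher-scoring members. Birc5 ran opposite, with 62.7 ± 19.2 CPM around 0 and 408 ± 26.8 in the higher-scoring members. Hist1h2bc reached 91.3 ± 16.4 CPM from 0.1 up to the limit and 102 ± 21.3 in the lower-scoring members, so cells just outside the members were close to them.

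**Figure D3:**
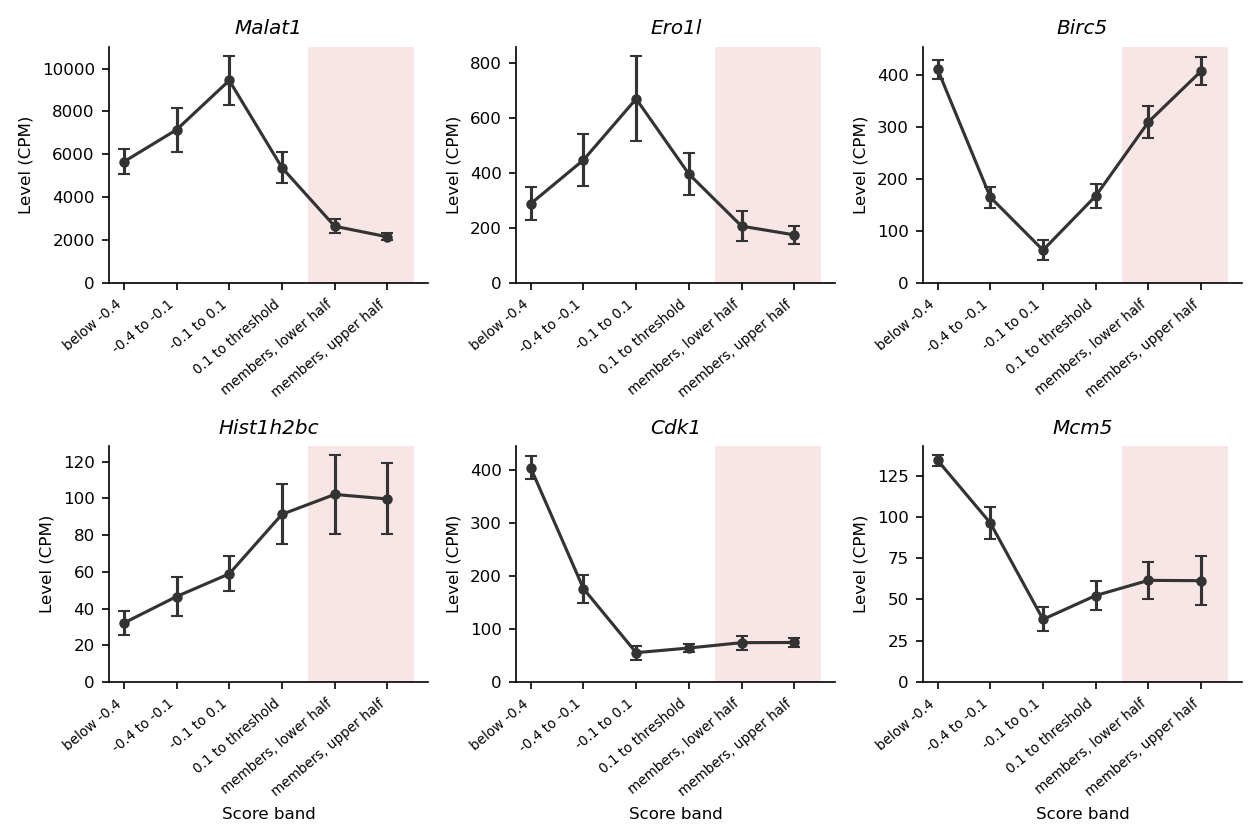
Level in CPM (mean ± SD over 8 tumours) of 6 genes in melanoma cells grouped by score, from below -0.4 on the left to the higher-scoring members on the right. Shading marks the members. Malat1 and Ero1l peak around a score of 0 and are lowest in members, and Cdk1 is as low around 0 (55.4 CPM) as in members.

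Hypoxia and stress genes were also lower in members than in the other melanoma cells. In hypoxia and glycolysis 12 of 14 genes were lower and 0 higher in all 8 tumours, with a median of -0.49. Ero1l was at 190 ± 40.6 against 458 ± 95.1 CPM, Ndrg1 at 20.1 ± 3.40 against 55.2 ± 18.1, and Vegfa, the main angiogenic factor, at 33.5 ± 13.1 against 67.6 ± 20.1. Compared with the G1/S cells these gaps were smaller, and Ero1l was at 206 ± 37.5 CPM there, with members above it in 3 tumours and below it in 5. Of 14 genes of the integrated stress response and the endoplasmic reticulum, 9 were lower in all 8 tumours, among them Ddit3 (87.9 ± 27.6 against 136 ± 39.2 CPM) and Atf4 itself (305 ± 47.2 against 369 ± 63.6 CPM). Summed over the list, however, members (2947 ± 496 CPM) held more of these stress genes than G2/M (2665 ± 499) and G1/S cells (2782 ± 546). Of 15 immediate early genes 9 were lower, such as Jund (193 ± 17.5 against 268 ± 23.5 CPM), and 0 were higher. Of 6 interferon genes 0 differed in 1 direction in all 8 tumours.

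Melanocyte genes were partly fixed by the choice of cells, since every cell kept had to take at least 0.3% of its UMIs from Mlana, Pmel, Dct, Tyr and Tyrp1. Summed over 15 melanocyte genes, members held 15202 ± 1002 CPM and other melanoma cells 15708 ± 1068. Of the 15, 2 were higher and 3 lower in all 8 tumours, with a median of -0.04. Mitf, the master regulator of the lineage, was at 402 ± 58.9 against 329 ± 39.3 CPM and Sox10 at 140 ± 14.1 against 120 ± 14.6, each higher in 8 of 8 tumours. The lower genes were Dct, Oca2 and Cited1, the last at 67.8 ± 22.9 against 105 ± 36.3 CPM. Ribosomal protein genes took a slightly smaller share of the UMIs in members, with 52 of 90 lower and 6 higher in all 8 tumours and a median of -0.08, whereas 7 of 13 mitochondrially encoded genes were higher.

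Host transcripts were scarce. Ptprc, the pan-leukocyte marker, was seen in 1 of 2279 members, and Cd3e, Gzmb, Trac, Cdh5, Emcn and Kdr were at 0 in all members. Macrophage markers summed to 11.7 ± 8.22 CPM in members and 16.7 ± 9.21 in other cells, led by Lyz2. Fibroblast markers summed to 45.7 ± 43.6 CPM in members and 64.2 ± 59.3 in other melanoma cells, led by Col3a1, and a UMI of Col1a1 or Col1a2 was found in 159 of 2279 members (6.98%) and 1517 of 20504 other cells. Summed endothelial markers were at 2.87 ± 1.35 and 2.76 ± 0.504 CPM, although Pecam1 alone was at 2.03 ± 1.17 in members and 0.868 ± 0.271 in other cells. The source of these low counts was not tested, and no doublets were removed.

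Members were smaller in RNA than the dividing cells. Their median UMI count, averaged over tumours, was 9835 ± 1052, against 14487 ± 1436 in G2/M cells, 12656 ± 1201 in G1/S cells and 10707 ± 856 in all other melanoma cells. The ratio to G2/M cells was 0.679 ± 0.020 and lay between 0.647 and 0.702 over the 8 tumours. When each cell was thinned to 4000 UMIs, members held 1791 ± 29.2 genes and other cells 1767 ± 27.9, so the diversity of transcripts was close. Thinning every cell before scoring kept 1671 of the 2279 members (73.3%).

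Within the members, cells were ordered by the UMIs of the subtracted genes left after thinning to 4000 UMIs, a count that belongs to the score and is used only to describe. 1191 members had none, 639 had 1 and 449 had 2 or more, and the median depth of these steps was 9720, 9954 and 9758 UMIs. From 2 or more down to none, Plk1, the polo kinase of mitosis, was at 96.9 ± 11.3, 60.2 ± 9.42 and 29.8 ± 4.90 CPM. Mki67 was at 257 ± 49.6, 166 ± 24.5 and 109 ± 14.5 CPM over the same steps, and Ube2c at 273 ± 31.5, 186 ± 19.5 and 131 ± 12.2. Hist1h2bc ran opposite, at 73.0 ± 17.9, 101 ± 27.0 and 112 ± 23.1 CPM. Malat1 showed no such order, at 2598 ± 388, 2253 ± 353 and 2398 ± 244 CPM, and neither did Mcm5, at 59.8 ± 12.0, 63.8 ± 15.3 and 60.0 ± 11.8 CPM. These steps were cut on genes of the score, and the score limit asks for more added genes where subtracted genes are present (a median of 5, 4 and 3 thinned UMIs), so the order of the mitotic genes was built in. Low Cdk1, Aurkb and licensing RNA was not particular to the members. In cells with scores from -0.1 to 0.1, Cdk1 was at 55.4 ± 13.1, Aurkb at 10.4 ± 2.90 and Mcm5 at 37.9 ± 7.19 CPM, and in those from 0.1 up to the limit at 64.2 ± 7.90, 10.0 ± 2.39 and 52.4 ± 8.63 CPM. The label of late mitosis and early G1 therefore rests on the score and on RNA alone.

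The first comparison that the score did not use was by host. Members made up 10.2%, 8.51%, 7.12% and 9.59% of the melanoma cells in Atf4WT/WT tumours 1 to 4 and 10.0%, 9.08%, 13.5% and 10.3% in Atf4Δ/Δ tumours 1 to 4. Tumour 3 of the Atf4Δ/Δ group was highest, and the other 3 of that group lay within or beside the range of the Atf4WT/WT group. The means were 8.86% ± 1.36 and 10.8% ± 1.94 (SD, n = 4 each), a difference of 1.90 percentage points that did not pass the exact two-sided permutation test over 70 assignments (p = 0.171). The smallest p this design allows is 0.0286. Without Atf4Δ/Δ tumour 3 the difference was 0.963 points. As cell numbers in a library depend on dissociation and capture, a share of cells is not a rate of division.

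**Figure D4:**
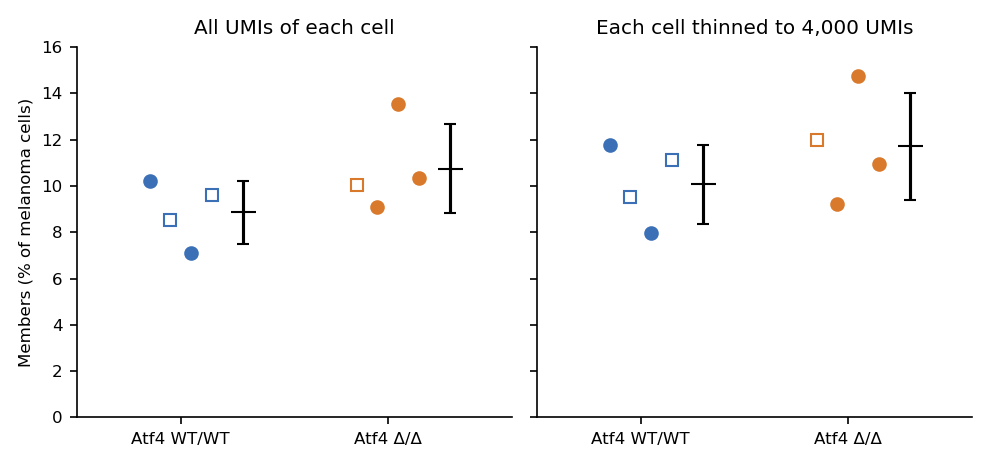
Members as a percentage of the melanoma cells of each tumour, with all UMIs (left) and with each cell thinned to 4,000 UMIs before scoring (right). Filled circles are male hosts, open squares female hosts, and bars the mean with SD. In both panels the groups overlap, and Atf4Δ/Δ tumour 3 is highest, at 13.5% and 14.7%.

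Expression by host within the members was then tested on counts summed per tumour, with edgeR's quasi-likelihood test and Benjamini-Hochberg adjustment over 9421 genes. 9 genes passed an adjusted p of 0.05, 0.0955% of those tested, with 6 higher and 3 lower in Atf4Δ/Δ hosts, and 778 had an unadjusted p under 0.05. Those higher included Eno1, Eno1b, Ftl1-ps1, Mgarp and Gstp1, and those lower were Pde10a, Gm42418 and Fkbp2. Levels in this comparison are CPM after TMM scaling. Samples of a group were separate tumours by their labels.

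Eno1, the glycolytic enzyme enolase, was at 536, 626, 505 and 530 CPM in members of Atf4WT/WT tumours 1 to 4 and at 793, 784, 731 and 879 CPM in Atf4Δ/Δ tumours 1 to 4. All 4 Atf4Δ/Δ tumours were above all 4 of the others, as was the case for 2.57% of all genes tested. The log2 fold change was 0.52 ± 0.085 (SE, edgeR adjusted p = 0.0120). Eno1b, a near-identical copy of it, was at 10.0 ± 2.97 and 23.9 ± 3.80 CPM, and reads may be divided between the copies, so the 2 are not independent. Ftl1-ps1, annotated as a pseudogene of the ferritin light chain and subject to the same doubt, was at 101 ± 7.31 and 156 ± 18.4 CPM. Mgarp, a mitochondrial protein known to be induced in hypoxia, was at 19.4 ± 6.91 and 41.8 ± 6.13 CPM (log2 fold change 1.01 ± 0.176, edgeR adjusted p = 0.0181).

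Gstp1, a glutathione transferase, rested on uneven tumours. It was at 72.0 to 96.8 CPM in the 4 Atf4WT/WT tumours and at 170, 338, 109 and 167 in Atf4Δ/Δ tumours, where tumour 2 was highest and tumour 3 lowest. The groups did not overlap, and the log2 fold change was 1.19 ± 0.231 (edgeR adjusted p = 0.0490).

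Pde10a, a phosphodiesterase of cyclic nucleotides, was lower in Atf4Δ/Δ hosts. It was at 129, 76.4, 100 and 110 CPM in Atf4WT/WT tumours 1 to 4 and at 64.4, 52.2, 51.0 and 58.5 CPM in Atf4Δ/Δ tumours 1 to 4, with no overlap, as for 2.12% of all genes in that direction. Its log2 fold change was -0.91 ± 0.132 (edgeR adjusted p = 0.00972), and it was the only one of the 9 to pass with each tumour left out in turn. Fkbp2, a proline isomerase of the endoplasmic reticulum, was at 164 ± 5.63 and 119 ± 7.37 CPM. Gm42418, which overlaps ribosomal RNA sequence and is therefore uncertain as a gene, was at 693 to 1814 CPM in Atf4WT/WT and 576 to 668 in Atf4Δ/Δ tumours. On the lower side Gm2000 (edgeR adjusted p = 0.136) and Syne1 (0.160) came next and did not pass.

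The number of calls changed with the tumours entered. Leaving out Atf4WT/WT tumour 3 left 1 gene past the threshold. Without Atf4WT/WT tumour 1 or 4 or Atf4Δ/Δ tumour 1, 3 genes passed, against 27 without Atf4Δ/Δ tumour 2 and 14 without Atf4Δ/Δ tumour 3. Those that passed without Atf4Δ/Δ tumour 1 included Gm2000 (edgeR adjusted p = 0.0242), which had not passed with all tumours. Eno1, Eno1b and Ftl1-ps1 each lost the call in 4 of these 8 fits (adjusted p up to 0.0892 for Eno1), Mgarp and Gstp1 in 5, Fkbp2 in 7 and Gm42418 without Atf4WT/WT tumour 3. The log2 fold changes kept their sign, from 0.48 to 0.60 for Eno1, 0.55 to 0.70 for Ftl1-ps1, 1.06 to 1.30 for Eno1b and -0.52 to -0.44 for Fkbp2, and that of Gstp1 was 0.80 without Atf4Δ/Δ tumour 2.

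**Figure D5:**
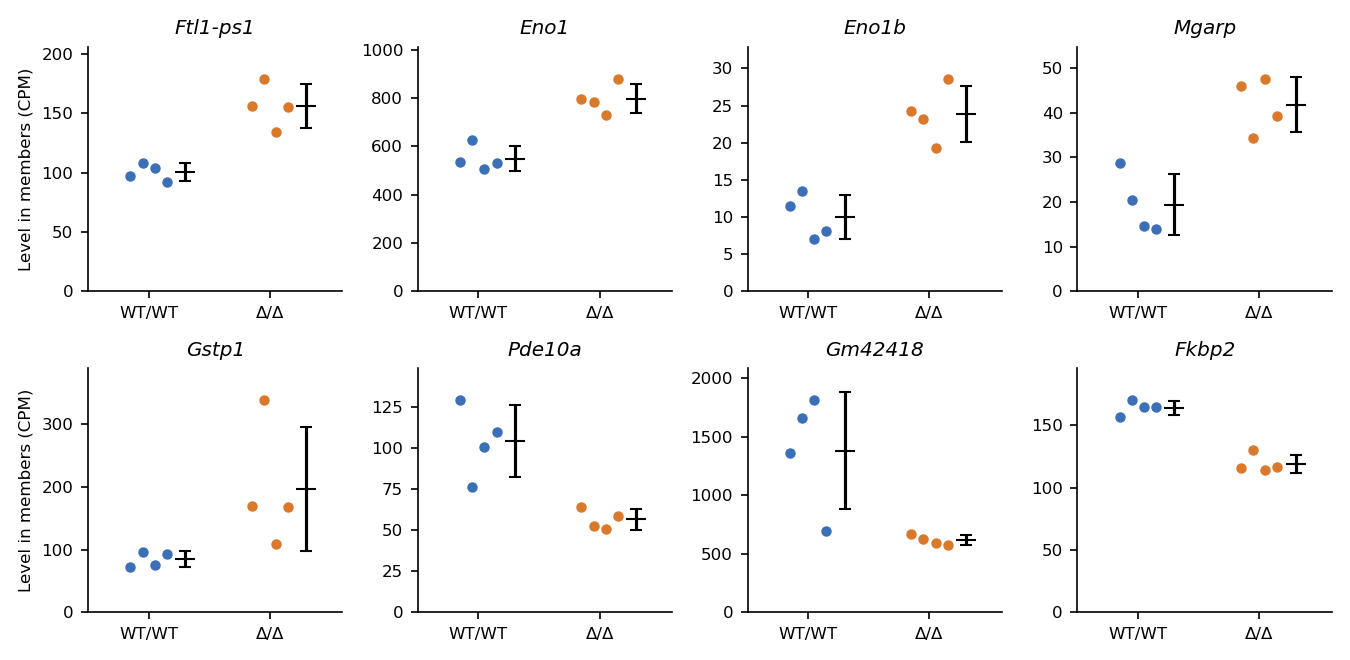
Level in members, in CPM after TMM scaling, of 8 of the 9 genes that passed an adjusted p of 0.05 between hosts. Points are tumours (blue Atf4WT/WT, orange Atf4Δ/Δ), bars the mean with SD of 4, and axes start at 0. All 8 show groups without overlap, and those of Gm42418 come close, at 668 and 693 CPM.

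The genes that mark the members did not pass between hosts. Of the 5 added and 5 subtracted genes 0 passed in edgeR, with 0 at an unadjusted p under 0.05 and log2 fold changes from -0.11 for Top2a to 0.08 for Cenpf. DESeq2, which gave an adjusted p to 1750 of the 9421 genes, called 0 of the 5 added genes and gave none of the 5 subtracted genes an adjusted p. Cenpa was at 286 ± 16.7 and 275 ± 18.9 CPM. Of 15 late mitotic genes 0 passed (median -0.07), and of 19 licensing genes 0 passed (median -0.03), with 0 of either at an unadjusted p under 0.05 and 0 called among the 9 late mitotic and 1 licensing genes that DESeq2 adjusted. Malat1 was at 2541 ± 251 and 2251 ± 125 CPM, a log2 fold change of -0.19 ± 0.083 (edgeR adjusted p = 0.574). Atf4, which the melanoma cells carry in both hosts, was at 306 ± 50.6 and 303 ± 49.0 CPM (log2 fold change -0.02 ± 0.120, edgeR adjusted p = 0.989).

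In hypoxia and glycolysis, 13 of 13 genes tested had a positive log2 fold change in Atf4Δ/Δ hosts, with a median of 0.27, whereas 4633 of all 9421 genes tested were positive, with a median of -0.003. In the other melanoma cells the median of this list was 0.30, as that of the stress genes was -0.17 and that of ribosomal proteins -0.12, so these shifts were also seen outside the members. Only Eno1 of the 13 passed, and 5 had an unadjusted p under 0.05. Bnip3 had a log2 fold change of 0.66 (edgeR adjusted p = 0.425) and Slc2a1, the glucose transporter, one of 0.48 (adjusted p = 0.404). For the stress genes 11 of 13 were negative, with a median of -0.21, 0 past the threshold (also 0 of the 7 that DESeq2 adjusted) and 3 at an unadjusted p under 0.05, among them Asns, asparagine synthetase, at -0.48 (adjusted p = 0.440). Of 90 ribosomal protein genes 79 were negative, with a median of -0.13. Without overlap, 15 of the 90 were lower and 1 was higher in Atf4Δ/Δ hosts, against 2.12% and 2.57% of all genes tested. In edgeR 0 of the 90 passed and 31 had an unadjusted p under 0.05, and DESeq2 called 2, Rpl27 (0.39 in edgeR) and Rps18 (-0.30). Of 15 melanocyte genes 11 were positive, with a median of 0.15. Of the 15, 0 passed in edgeR and 1, Mitf, in DESeq2, while 7 had an unadjusted p under 0.05 in edgeR, Mitf the smallest (log2 fold change -0.36, adjusted p = 0.184).

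The same test in the other melanoma cells of these tumours called 3 of 12507 genes (0.024%), Fn1, Gm29084 and Plat, all higher in Atf4Δ/Δ hosts, with 1383 at an unadjusted p under 0.05. None of the 9 genes called in members passed there, yet their log2 fold changes had the same sign. Pde10a was at -0.80 ± 0.112 (adjusted p = 0.0540), Eno1 at 0.45 ± 0.091 (adjusted p = 0.194) and Mgarp at 0.70 ± 0.286 (adjusted p = 0.420). Whether members and other cells differ in the effect of the host was tested in 1 fit over both sets of cells, which blocked on the tumour and asked for the interaction of host and set. It called 3 of 12013 genes (0.025%, with 568 at an unadjusted p under 0.05) and none of the 9, each of which had an adjusted p of 1.00 there. For Eno1 the difference between the effects was 0.08 ± 0.046 and for Mgarp 0.34 ± 0.135.

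The 3 genes with an interaction were Rsad2, an interferon-induced antiviral gene, and the collagen genes Col1a2 and Col1a1. Rsad2 was at 19.3, 9.55, 38.1 and 43.6 CPM in members of Atf4WT/WT tumours 1 to 4, against 29.9, 26.6, 73.9 and 119 in their other cells, so members were lower in all 4. In Atf4Δ/Δ tumours 1 to 4 it was at 41.4, 75.9, 13.4 and 11.9 CPM in members against 24.4, 63.9, 28.5 and 15.9, higher in the first pair and lower in the second. The difference was 1.04 ± 0.195 (edgeR adjusted p = 0.0116), and the call was lost without Atf4WT/WT tumour 2 or 4 or Atf4Δ/Δ tumour 1 or 2. Col1a2 differed by -1.63 ± 0.278 (adjusted p = 0.00368) and Col1a1 by -1.36 ± 0.274 (adjusted p = 0.0311). Brca1 (0.51), Mecom and Ccdc57 on the higher side and Col6a3, 2610021A01Rik and Mfap5 on the lower side came next and did not pass. Both collagens are fibroblast markers, at 10.6 ± 10.1 and 14.3 ± 14.2 CPM in members, and in the other cells of Atf4Δ/Δ tumours Col1a2 ran from 0.339 CPM in tumour 3 to 38.5 in tumour 4. The part of host RNA in these collagen values was not tested. Without Atf4Δ/Δ tumour 4 the difference was -2.63 for Col1a2 and -2.26 for Col1a1. Col1a2 lost the call without Atf4WT/WT tumour 1 or Atf4Δ/Δ tumour 1, and Col1a1 without Atf4WT/WT tumour 2 or 4 or Atf4Δ/Δ tumour 1.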

How the data were processed

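Single-cell RNA sequencing of 8 large B16F10 tumours was analysed, 1 library per tumour. The authors aligned reads to GRCm38 with Cell Ranger (3.1.0 in the submitters' processing notes, which also name Seurat 3.2.1; the paper's methods give more than 1 version), counted UMIs on Ensembl genes, and for each tumour deposited the raw counts of genes by barcodes. The deposited counts are not normalized. Sources differ on the kit (V3 in the labels, V2 in the methods of the paper), and which library ran on which instrument is not given in the sources used here.

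Groups, replicate numbers, sex and age were taken from the labels. Barcodes were filtered and scored as described in the report, with no doublet caller. CPM are UMIs of a gene per 1000000 UMIs summed over the cells of a set in a tumour, and differences between members and other cells are on log2(CPM + 1). Thinning drew 4000 UMIs per cell with seed 1. Sums were tested with edgeR 4.0.16 in R 4.3.3 (filterByExpr, TMM, quasi-likelihood, Benjamini-Hochberg, adjusted p of 0.05), a procedure tested on simulated data. DESeq2 1.42.0 was an alternative, beside those given under the closing section. Shares were compared by exact permutation (scipy 1.17.1). Other tools were python 3.11.15, numpy 2.4.6, pandas 2.3.3, matplotlib 3.10.9, limma 3.58.1 and the R package data.table (version 1.17.8). Replicates of a group differed by more than counting noise, with a chi-square per gene of 2.15 to 6.49 over 12 pairs of member sums. All SDs are over tumours, SEs of fold changes come from the edgeR fits, and the percentiles of Malat1 are over cells pooled from all tumours. Cells were never taken as replicates in a test.

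The members, gene lists and tests were chosen with earlier results of these data known. Named genes are the 10 of the score, those of the gene lists, the 15 with the largest and the 15 with the smallest median difference between members and other cells among genes of at least 20 CPM with 1 sign in all 8 tumours, and in each fit by host the 10 with the smallest p on each side past the threshold, or, where fewer than 5 passed on a side, the 5 with the smallest p there. Neat1 falls outside this rule and was chosen after its values were seen. A few genes that this rule names are not reported here.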

Additional observations from a re-analysis of the deposited data

Results flagged for a closer look

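In 3 genes the difference between hosts was not the same in members and in the other melanoma cells of the same tumours, by edgeR's test of the interaction. The difference of differences was 1.04 for Rsad2 (adjusted p = 0.0116), -1.63 for Col1a2 (adjusted p = 0.00368) and -1.36 for Col1a1 (adjusted p = 0.0311), on the log2 scale. The collagen levels behind this are small, and in members Col1a2 was at 0.395 CPM in Atf4Δ/Δ tumour 3 and at 28.9 in Atf4Δ/Δ tumour 4.

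A gap rule for single tumours within a group of 4 was applied to 70 groups of values, where chance flags about 1 group in 20, and it marked 6. In the Atf4WT/WT group the median mitochondrial share of members was 5.11% in tumour 4 against 5.89% in the next lowest tumour, Atf4 was at 231 CPM in tumour 1 against 325 in the next, and Cdk1 was at 65.5 CPM in tumour 3 against 78.5 in the next. In the Atf4Δ/Δ group Fkbp2 reached 130 CPM against 117, Plk1 58.5 against 51.4 and Aurkb 13.2 against 8.03 CPM in the next highest tumour.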

How the results depend on the processing

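The member share stayed higher in Atf4Δ/Δ hosts and short of the threshold under the 8 other settings (1.03 to 2.56 points, exact permutation p of 0.0857 to 0.400), with a difference of 0.963 to 2.45 percentage points and an exact permutation p of 0.114 to 0.343 when each tumour was left out, and of 1.90 points under the replicate block (sign flips, exact permutation p = 0.25, where 0.125 is the smallest possible). Among male hosts alone it was 2.33 points (exact permutation p = 0.400, smallest possible 0.1). In members the number of genes called by host was 9, and it moved to 128 (65 higher) when every gene with at least 1 count was kept and to 17 (7 higher) with DESeq2, which left Eno1b, Mgarp and Pde10a without an adjusted p. It was 10 with the replicate block and 6 with host sex as a covariate, where Mgarp, Gstp1 and Fkbp2 did not pass. Gstp1 also missed the threshold with DESeq2 (adjusted p = 0.0738). In edgeR, Gstp1 and Mgarp missed it with the top 20% of cells (adjusted p = 0.149 and 0.202) and with members chosen after thinning (0.0930 and 0.364), and Fkbp2 missed it after thinning (0.165), with the top 5% (0.0714) and with the replicate block (0.0781). With 1 tumour left out it ran from 1 to 27. For the interaction the number was 3, moved to 8 with every gene kept and ran from 0 to 9 with 1 tumour left out, and it was 3 with the replicate block. The replicate numbers gave no sign of pairing the tumours, as the correlation of same-numbered members was -0.16 to -0.03. Of the 4 Atf4WT/WT tumours, 0 correlated best with the Atf4Δ/Δ tumour of their own number. The Atf4Δ/Δ tumours were not checked in turn. Members chosen after thinning differed less from other cells, as in Fbxo5 (-1.86), Prc1 (-1.79), Top2a (-2.16) and Malat1 (-1.30), with no change of sign in the 10 genes of the score or the 30 leading genes. The cause of these moves was not tested. Depth limits genes of a few UMIs most, as the members of a tumour summed to 1584017 UMIs at the fewest.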
